A study of Mus musculus with 4 samples.

Results

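Haemoglobin-rich barcodes were a part of every single cell RNA sequencing (scRNAseq) library made from mouse adipose tissue (AT). They were chosen by their globin values, as all cell barcodes in which the 4 major adult globin genes, Hbb-bs, Hbb-bt, Hba-a1 and Hba-a2, made up at least 50% of the unique molecular identifiers (UMIs, each counting 1 captured RNA molecule), with no minimum of genes. There were 774 such barcodes among 4927 in all, or 15.7%. Since globin chose them, their globin values are a description, and the non-globin transcripts were what could be compared.

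The tissue came from 7 month-old males that had been on a high fat diet for 5 months. WT mice were Tie2e-cre; TERT+/+; mTmG and KO mice were Tie2e-cre; TERTfl/fl; mTmG, so both genotypes carried the recombinase and the reporter. Tie2e directs Cre to endothelial cells (EC), and mTmG turns from membrane Tomato to membrane GFP in a cell where Cre has acted. Cells were taken from subcutaneous (SC) and visceral intraperitoneal (IP) AT. There was 1 library for each of the 4 groups, and the labels do not say how many mice were pooled in it. Values of the 4 libraries are given below in the order WT SC, KO SC, WT IP, KO IP wherever no library is named. The labels name cells and also nuclei as the material loaded. Differences between libraries therefore had no replicate check and no test, and their intervals cover counting error only.

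Mature red cells of mammals have no nucleus and make no new RNA. They derive from reticulocytes, young red cells that have lost the nucleus but still carry RNA, mostly for globin. During the last steps a reticulocyte finishes haemoglobin, sheds mitochondria and ribosomes through autophagy and the ubiquitin system, and loses the receptors and membrane proteins it no longer needs. Red cells reach an AT digest with the blood of the tissue.

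Globin-rich barcodes numbered 220 of 1187, 136 of 2115, 250 of 925 and 168 of 700. In SC their share of barcodes was 18.5% (exact 95% interval 16.4 to 20.9) for WT and 6.43% (5.42 to 7.56) for KO. In IP it was 27.0% (24.2 to 30.01) for WT and 24% (20.9 to 27.3) for KO. KO SC had the smallest share, and the 2 IP intervals overlapped. The log2 ratio of the share, KO against WT, was -1.53 (95% interval -1.82 to -1.24) in SC and -0.17 (-0.42 to 0.07) in IP. The share rests on how many other barcodes each library holds, and how completely blood was removed from each tissue was not tested.

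The globin share fell into separate ranges with few barcodes between them. Of the 774 barcodes, 763 (98.6%) had at least 90% globin, and in all 4 libraries together 22 barcodes lay between 10 and 90%. The median share was 97.7%, 97.9%, 97.7% and 98.1%. The lowest barcodes inside the threshold had 50.9%, 70.3%, 93.4% and 92.4%. The highest outside it had 49.9%, 35.6%, 42.3% and 39.0%. All other barcodes together held little globin, 0.0758% of their UMIs in KO IP to 0.209% in WT IP, and 98.6 to 99.6% of a library's globin UMIs sat in the globin-rich barcodes.

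**Figure D1:**
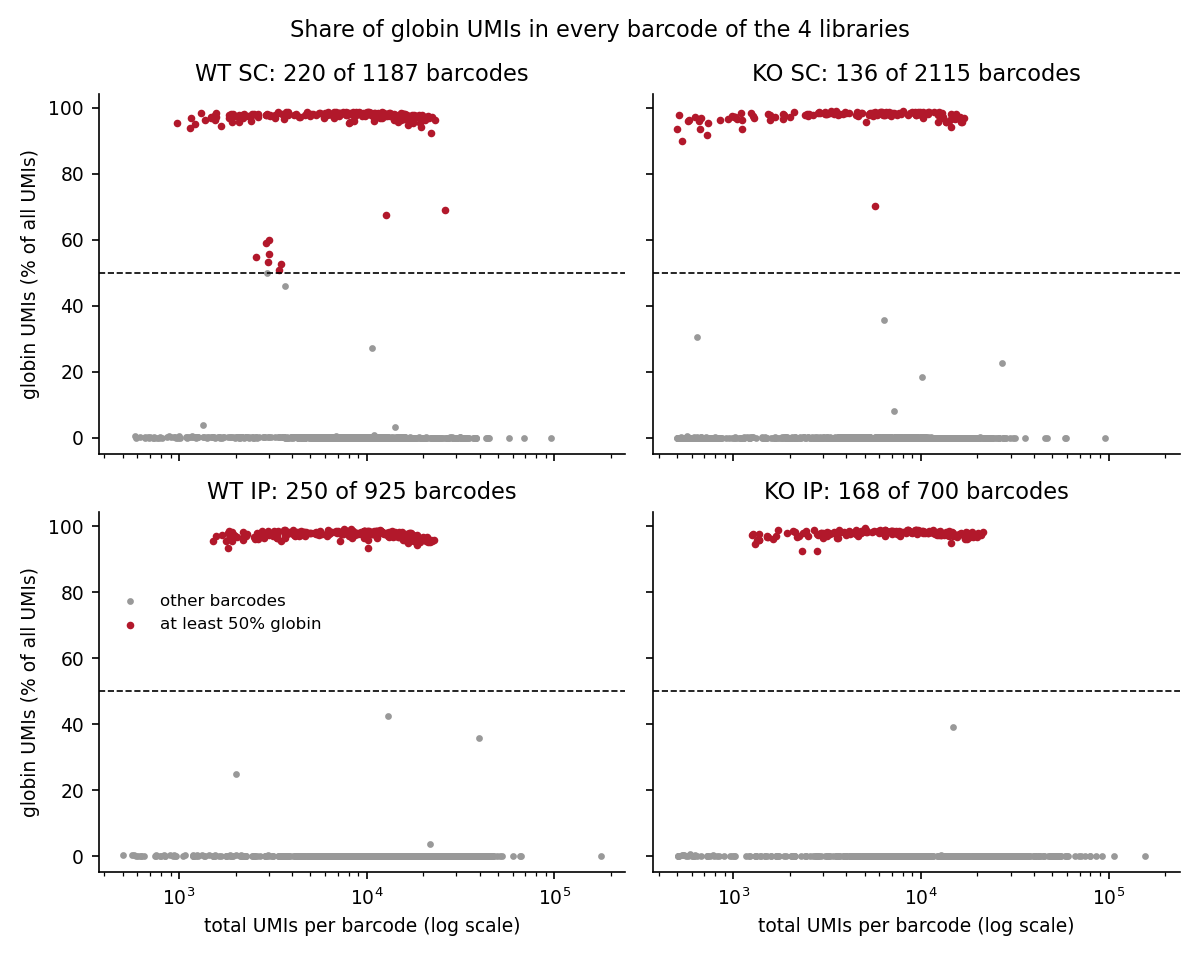
Globin UMIs as a percentage of all UMIs (vertical axis) against total UMIs on a log scale (horizontal axis) for every barcode, 1 panel for each library. Red points are the barcodes at or above the dashed 50% line, and nearly all lie above 90%, while 9 in WT SC and 2 in KO SC lie between 50 and 90%.

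Globin-rich barcodes were deep in UMIs and poor in genes. The median total was 8810, 5621, 9315 and 8329 UMIs. The median left after globin was 176.5, 91.5, 164 and 129 UMIs, from 69.5, 48.5, 68 and 58.5 genes. The other barcodes had medians of 2125 to 3292 genes. A minimum of 200 genes, common in scRNAseq work, would have kept 16, 4, 13 and 0 globin-rich barcodes, or 33 in all. Summed over barcodes, the non-globin UMIs numbered 73875, 22242, 63730 and 30531, so values from KO SC carry the widest counting error. KO SC and WT IP shared 93 barcode sequences, none of them globin-rich in either library, and KO IP shared 1 with each SC library. The gene deleted in KO, Tert, had 0 UMIs in all 774 barcodes, and the other barcodes held 3, 2, 8 and 9. A count of 0 allows up to 40.6, 135, 47.1 and 98.3 counts per 1000000 non-globin UMIs (CPM, the scale used for levels below), above the 0.137 to 1.05 CPM of the other barcodes, so Tert was not detectable at this depth. Whether the counted end of its RNA lies in the deleted stretch was not tested, and Tert does not check the genotype here.

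The globins themselves kept a similar split in the 4 libraries. Hbb-bs, the main adult beta chain (Hbb-bs and Hbb-bt lie on chromosome 7, minus strand, at 103826534 to 103828096 and 103812524 to 103813996 of mm10), took 52.0 to 55.8% of globin UMIs, and Hbb-bt 6.84 to 8.91%. Hba-a1 and Hba-a2 (chromosome 11, plus strand, 32283511 to 32284465 and 32296489 to 32297298) took 20.5 to 23.7% and 15.3 to 17.5%. The alpha chains together made 35.8, 37.3, 38.0 and 41.2%. Hbb-bt made 13.9% of beta-chain UMIs in WT SC and 14.1% in WT IP, against 11.0% in KO SC and 11.6% in KO IP. The KO libraries were below the WT libraries over all barcodes, but the share moved with depth, and at matched depth the order in SC was not kept throughout, as given further on. The transcripts of Hba-a1 and Hba-a2 share 72.4 and 92.3% of their 25-base stretches, so the split between these 2 is uncertain. Their promoter windows hold an identical run of 247 bases out of 250.

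The 250 bases before the start of Hbb-bs, Hba-a1 and Alas2 are shown because these 3 genes mark the barcodes. The windows of Hbb-bt, Bpgm and Ube2l6 were also searched for the letters below and held none of them. They are RefSeq windows of GRCm38.p6, Hbb-bs at chr7:103827929-103828178 (minus strand), Hba-a1 at chr11:32283422-32283671 (plus strand) and Alas2 at chrX:150547167-150547416 (plus strand). Capitals mark AGATAA and TGATAA, letters that the erythroid factor GATA1 is known to bind, and CCACACCC, letters bound by the erythroid factor KLF1, each on either strand.
Hbb-bs: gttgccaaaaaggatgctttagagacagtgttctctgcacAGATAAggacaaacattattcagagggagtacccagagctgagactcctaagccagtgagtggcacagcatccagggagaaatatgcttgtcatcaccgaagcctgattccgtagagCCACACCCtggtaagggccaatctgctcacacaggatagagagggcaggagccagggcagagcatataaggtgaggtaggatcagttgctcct
Hba-a1: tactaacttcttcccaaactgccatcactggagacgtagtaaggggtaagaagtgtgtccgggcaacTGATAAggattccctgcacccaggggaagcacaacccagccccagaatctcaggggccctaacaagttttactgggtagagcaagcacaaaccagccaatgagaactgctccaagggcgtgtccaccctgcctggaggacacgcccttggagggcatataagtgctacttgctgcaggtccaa
Alas2: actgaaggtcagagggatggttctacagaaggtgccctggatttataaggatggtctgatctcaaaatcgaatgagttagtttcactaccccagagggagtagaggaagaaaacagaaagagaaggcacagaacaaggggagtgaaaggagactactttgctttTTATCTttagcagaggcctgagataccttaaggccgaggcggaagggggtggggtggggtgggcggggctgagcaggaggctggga

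AGATAA or its reverse complement TTATCT began 210 bases before the start of Hbb-bs and 86 before that of Alas2, TGATAA began 183 before Hba-a1, and CCACACCC began 93 before Hbb-bs. Over 32851 windows of this length in the genome's genes, 9.99% held AGATAA, 7.94% TGATAA and 3.20% CCACACCC, on either strand. Over the 225 windows of 168 genes called higher in globin-rich barcodes, the shares were 9.33, 4.89 and 1.33%, and over the 2276 windows of all genes tested 5.27, 4.53 and 2.68%. A match is a description of the letters.

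The non-globin RNA of globin-rich barcodes was led by red cell genes. Alas2, the erythroid enzyme that catalyses the first step of haem synthesis, gave 2909, 1001, 3180 and 1673 UMIs, or 39377, 45005, 49898 and 54797 CPM. Only the end of each RNA was counted, so these levels do not scale with the length of a transcript. The other barcodes held 9, 4, 32 and 9 Alas2 UMIs, or 0.273 to 2.98 CPM. Every library separated widely, and Alas2 RNA was detected in 91.8%, 77.9%, 89.2% and 85.1% of globin-rich barcodes against 0.202 to 0.564% of the others, whose median depth was 6696 to 12402 non-globin UMIs. With each barcode thinned to 50 non-globin UMIs, the shares were 84.7, 87.6, 81.9 and 79.4% against at most 0.0141%, leaving out 18, 36, 12 and 14 globin-rich barcodes that were shallower.

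The lists of genes used below were tested by setting, within each library, the sum over globin-rich barcodes against the sum over all other barcodes (8 sums, library as block, edgeR's quasi-likelihood test, Benjamini-Hochberg adjusted p under 0.05, globins left out). Of 2245 genes tested, 219 (9.76%) were higher and 1629 (72.6%) lower in globin-rich barcodes. This split depended on the scaling. With TMM, which centres on the bulk of genes, all log2 values moved up by 1.41 in the median, and 282 genes were higher and 252 lower. All 219 higher calls were higher there too, as in DESeq2, but 252 of the 1629 lower calls were lower. On the CPM scale a high share of a few RNAs lowers the share of all others.

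The erythroid lists held 88 genes, of which 43 could be tested. Of these 40 were higher (background 9.76%), 1 was lower and 2 were not called, with a median log2 difference of 6.51 against -2.55 over all genes tested. Together the lists made 29.6, 36.3, 39.4 and 34.6% of non-globin UMIs, against 0.907 to 1.44% in the other barcodes. They were chosen as red cell genes with earlier results of these data known. Of the 88, 11 had no UMI in any globin-rich barcode and 32 had 1 to 9.

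**Figure D2:**
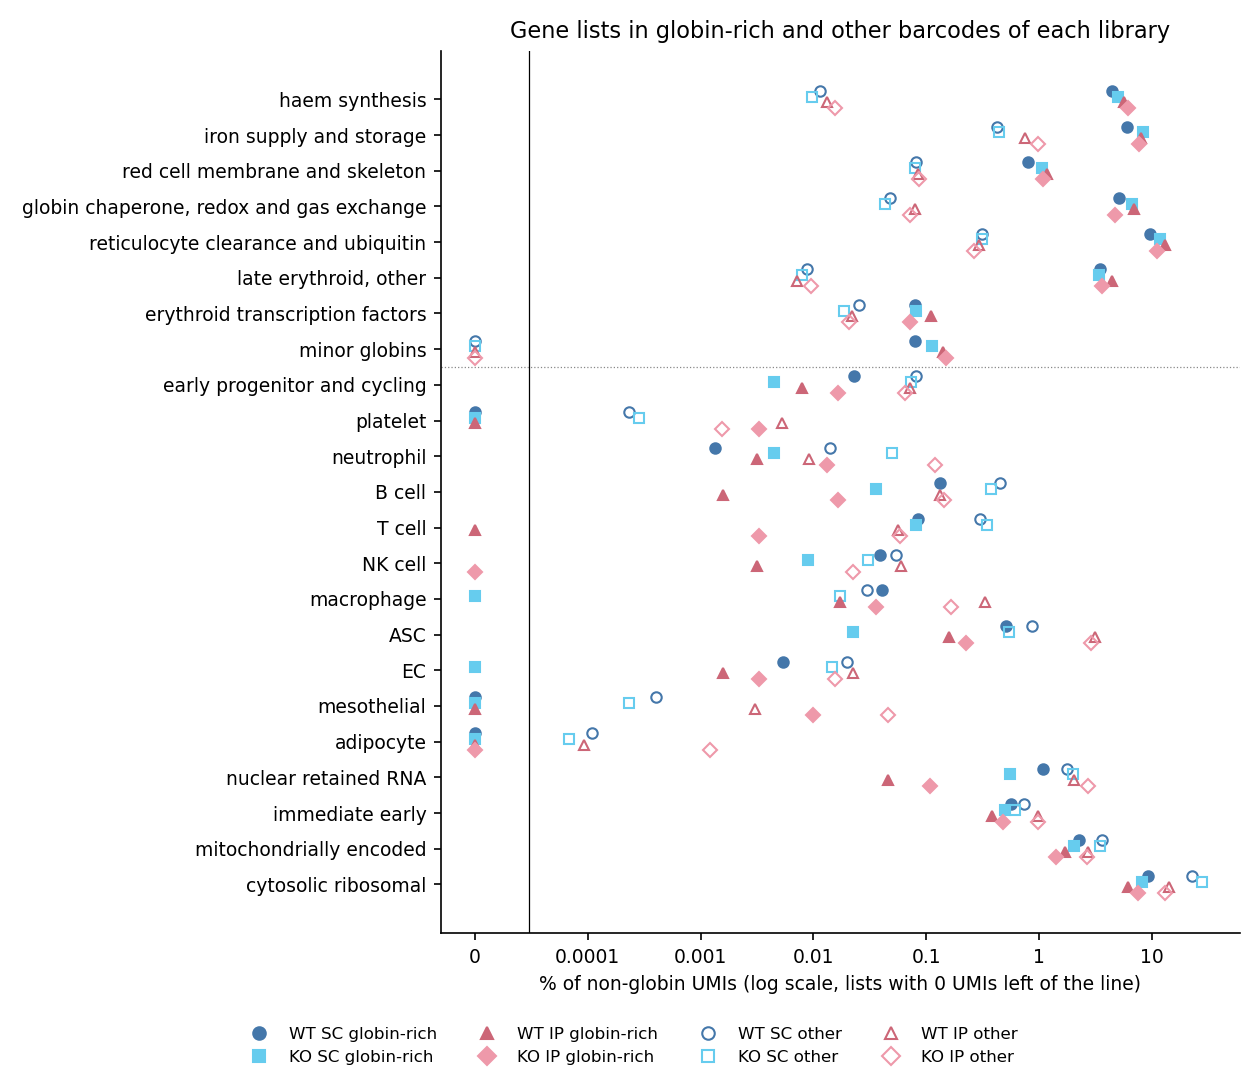
Share of non-globin UMIs (log scale) taken by each gene list, with filled symbols for globin-rich barcodes and open symbols for the other barcodes of the same library. The 8 erythroid lists, above the dotted line, lie to the right in globin-rich barcodes of all 4 libraries, and lists with 0 UMIs are placed left of the vertical line.

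Haem synthesis was represented mainly by its first and last enzymes. All 4 genes tested were higher. Fech, which puts iron into the porphyrin ring in the last step, was at 4142, 4811, 5382 and 6158 CPM, against 16.8 to 39.5 CPM in other barcodes (log2 difference 7.64 ± 0.43 SE, adjusted p = 9.3e-68 by edgeR's quasi-likelihood test). Urod, a middle enzyme of the pathway, rose less, by 3.51 ± 0.76, on 43 UMIs. The other enzymes of the list were scarce. Alad had 2 UMIs, Cpox 3, and Uros and Ppox none. The other barcodes held 187 to 614 UMIs of each, over a far larger total, so these counts do not show lower levels. Tspo2, a porphyrin transporter of red cell precursors, had 97 UMIs against 2 in all other barcodes (log2 ratio of the pooled levels 13.42, counting interval 11.53 to 16.49).

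Iron genes divided in the same way. Tfrc, the transferrin receptor by which precursors take up iron, had 0 UMIs in globin-rich barcodes and 1048 in the others. Slc11a2, which exports iron from the endosome, had 1 UMI. Neither gene was among those tested, and the other barcodes hold a far larger total of UMIs, so these counts do not establish a fall. All 5 genes tested were higher. Ftl1 and Fth1, the ferritin light and heavy chains that store iron, were at 37942 to 56140 CPM and 12512 to 18658 CPM, and rose by 4.68 ± 0.25 and 1.99 ± 0.27 on the log2 scale over the other barcodes (adjusted p = 2.3e-71 and 2.2e-12, edgeR). Ftl1 was the second most abundant non-globin RNA. Slc25a37, the mitochondrial iron importer known as mitoferrin 1, rose by 8.31 ± 0.45, Glrx5, which acts in iron-sulphur cluster assembly, by 5.39 ± 0.47, and Blvrb, a biliverdin reductase, by 5.22 ± 0.45.

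RNA for membrane proteins was scarce next to that for enzymes. The list made 0.796 to 1.19% of non-globin UMIs, and 6 of 7 genes tested were higher. Slc4a1, the anion exchanger band 3, had 21, 10, 28 and 7 UMIs, against 0, 0, 1 and 0 in the other barcodes. Epb41, protein 4.1 of the membrane skeleton, was the most abundant of the list at 4521 to 7763 CPM (log2 difference 5.19 ± 0.38). Bsg, basigin, rose by 2.43 ± 0.50. Cd47, the signal that protects red cells from phagocytosis, was lower by 2.07 ± 0.72 on the log2 scale (adjusted p = 0.0077, edgeR), a call that TMM scaling did not keep (-0.64). Aqp1, the water channel, and Xk, a membrane transporter, were at 0. The other barcodes held 208 and 86 UMIs of them, levels under the 15.8 CPM that a count of 0 allows here. The marker Slc4a1 was rare, present in 3.57 to 7.60% of globin-rich barcodes.

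The genes of oxygen release and protection from oxidation were abundant. All 5 tested were higher. Bpgm, the enzyme that makes 2,3-bisphosphoglycerate, which lowers the oxygen affinity of haemoglobin, stood at 32108, 38486, 40122 and 31018 CPM against 9.89 to 17.2 CPM in others (log2 difference 11.33 ± 0.36, adjusted p = 8.2e-204, edgeR). Prdx2, a peroxidase and one of the main proteins of the red cell, was at 7215, 7823, 11015 and 4094 CPM, and Gpx1, glutathione peroxidase, at 8799, 15736, 12427 and 10579 CPM. Their log2 differences were 5.32 ± 0.36 and 5.41 ± 0.33. Car2, carbonic anhydrase, and Cat, catalase, were rarer, with 504 and 150 UMIs in all and log2 differences of 8.32 ± 0.53 and 4.48 ± 0.66. Sod1, superoxide dismutase, had 2 UMIs against 3227 in the other barcodes, and Car1 had 1. Neither was among the genes tested, and the other barcodes hold a far larger total of UMIs, so these counts do not establish a fall.

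Ubiquitin and autophagy genes made the largest share of the erythroid RNA, 9.66 to 12.9% of non-globin UMIs against 0.264 to 0.313% in other barcodes, and 9 of 10 tested were higher. Mkrn1, a ubiquitin ligase, was at 27763, 38261, 38271 and 32983 CPM, against 72.5 and 59.4 in the other barcodes of the WT libraries (log2 difference 9.07 ± 0.33). Ubb, a ubiquitin precursor, was at 27344, 34035, 41252 and 28659 CPM against 1690 to 2084 (4.05 ± 0.26). Ube2l6, an E2 enzyme induced late in red cell formation, rose by 10.69 ± 0.40 and Ube2o, an E2/E3 enzyme that removes ribosomes from reticulocytes, by 6.51 ± 0.52. Bnip3l (Nix), the receptor by which reticulocytes clear mitochondria, was at 11510 to 13118 CPM and rose by 6.55 ± 0.35. The autophagosome proteins Gabarapl2 and Map1lc3b rose by 6.25 ± 0.36 and 4.44 ± 0.36. For each of these 7 genes the lowest globin-rich value lay above the highest value of the other barcodes.

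Of the other late erythroid genes all 7 tested were higher. Isg20, an exonuclease, and Tent5c, a poly(A) polymerase that prolongs the life of mRNA, were at 7913 to 10513 and 7662 to 11366 CPM, and rose by 9.36 ± 0.42 and 8.28 ± 0.40. Bcl2l1, the survival factor of late erythroblasts, rose by 4.83 ± 0.67. Epor, the erythropoietin receptor, was at 0, but the other barcodes held only 22 UMIs, so a fall could not be seen at this depth.

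Transcription factor RNA was scarce, though the list made 0.0721 to 0.110% of non-globin UMIs against 0.0188 to 0.0254% in other barcodes. Gata1 and Klf1 had 2 UMIs each, both in WT IP, and Tal1 and Nfe2 1 each among 190378 non-globin UMIs. The other barcodes held 13, 12, 52 and 56 UMIs of them over a far larger total. On 1 or 2 UMIs their levels could not be compared. These factors drive the genes of red cell formation in nucleated precursors. Lmo2 and E2f2, with 94 and 46 UMIs, had log2 differences of 3.42 ± 0.69 and 5.62 ± 0.80. Foxo3, with 12 UMIs, was at -0.47 ± 0.82 (adjusted p = 0.58, edgeR). Among the minor globins the theta chains Hbq1a and Hbq1b had 134 and 83 UMIs and none elsewhere, at least 10115-fold and 6265-fold higher with 3 counts allowed to the other barcodes. These 2 genes share 47.6 and 51.3% of their 25-base stretches. The embryonic chains Hbb-y, Hbb-bh1 and Hba-x had 0, 2 and 1 UMIs.

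**Figure D3:**
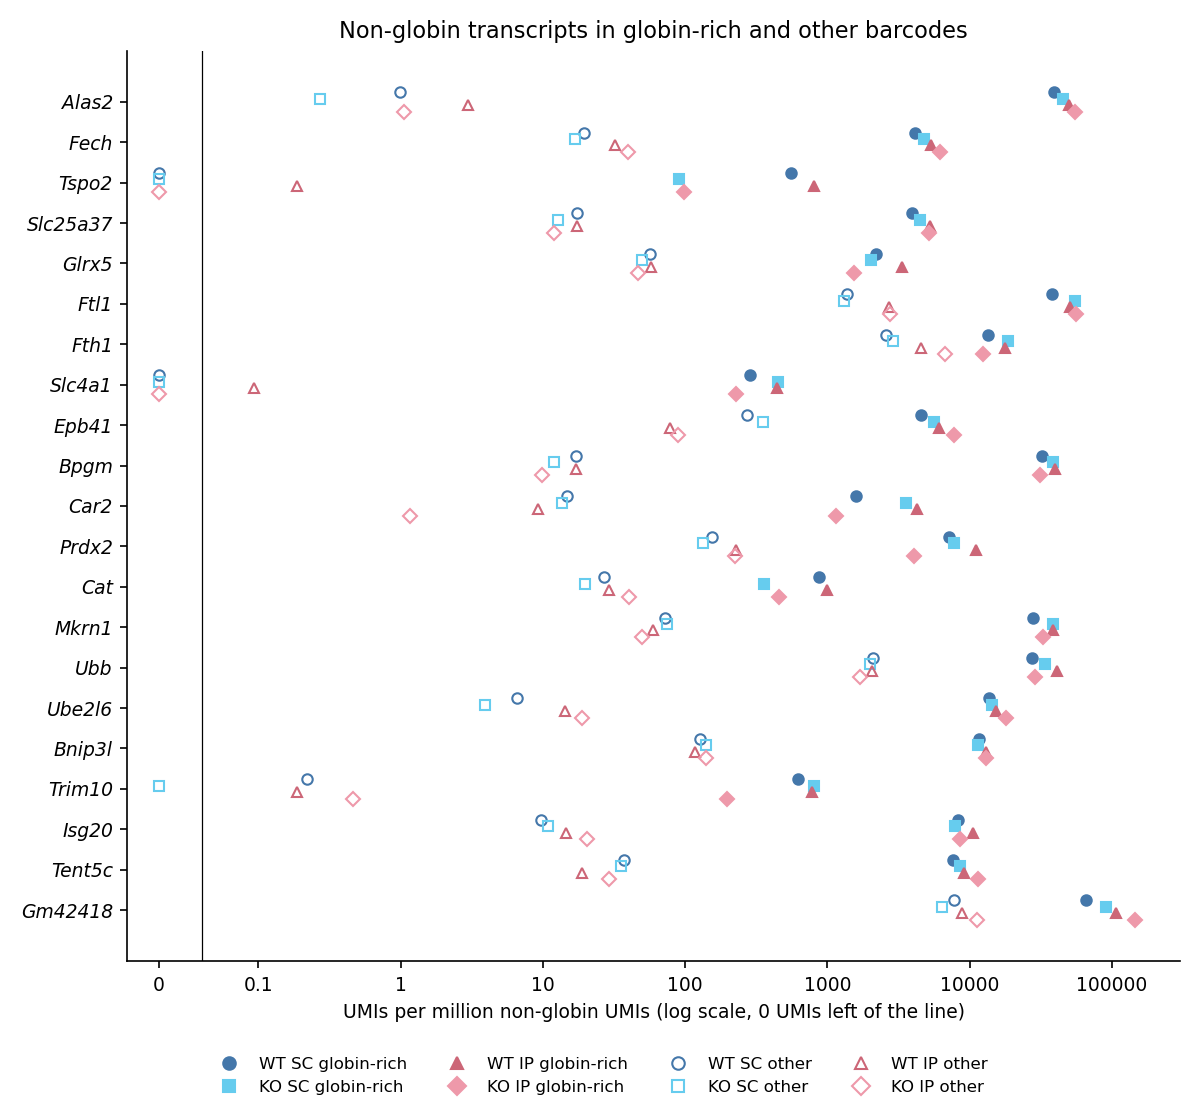
Levels in CPM of non-globin UMIs (log scale) of 21 genes, filled for globin-rich and open for other barcodes, with 1 symbol for each library. Slc4a1 was at 0 in the other barcodes of 3 libraries, and Alas2 differed by more than any other of the abundant enzymes shown.

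Beyond the lists, the most abundant non-globin RNA was Gm42418, with 18087 UMIs or 9.50% of all non-globin UMIs. It is a long non-coding RNA gene on chromosome 17 (39846958 to 39848788, plus strand) that overlaps ribosomal RNA sequence, and how many of its UMIs come from ribosomal RNA was not tested. It stood at 65570, 90460, 106167 and 146245 CPM against 6341 to 11336 in others and was found in 772 of 774 barcodes. The 10 most abundant genes made 37.2% of non-globin UMIs and the first 100 made 73.8%. Among the 10 were also Oaz1, which controls polyamine synthesis, Sec61g, a subunit of the protein channel of the endoplasmic reticulum, and Tpt1, a translation-associated protein, with log2 differences of 5.22 ± 0.28, 5.60 ± 0.32 and 1.68 ± 0.25. The largest rises outside the lists included Apol11b, an apolipoprotein L gene, with 264 UMIs in 106 barcodes and a log2 difference of 11.69 ± 0.74. Paqr9, of the progestin and adipoQ receptor family, had 44 UMIs against 2 in all other barcodes.

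The 10 genes with the largest falls had 0 UMIs in all 774 barcodes. Igfbp5, an insulin-like growth factor binding protein of stroma, had 15317 UMIs elsewhere and was at least 22.5-fold lower, and Aff4, a transcription elongation factor, at least 18.0-fold lower, with 3 counts allowed to the globin-rich barcodes. The others were Bicc1, Nav1, Socs3, Ust, Thsd7a, Pla1a, Ackr3 and Slc4a4, each at least 10.1 to 14.0-fold lower. These folds are on the CPM scale, with the shift under TMM not taken off, and all 10 genes were lower under TMM too. Cytosolic ribosomal protein RNA took 6.08 to 9.31% of non-globin UMIs against 13.0 to 27.6% in other barcodes. Of 78 such genes tested 69 were lower and 1, Rpl41, higher, with a median log2 difference of -2.05, close to the -2.55 of all genes. Under TMM 30 were lower and 6 higher. RNA encoded by the mitochondrial genome was 1.42 to 2.26% against 2.68 to 3.61%, with 10 of 12 genes lower and 1 under TMM. Malat1 and Neat1, RNAs that stay in the nucleus, took 0.0455% in WT IP, 0.108% in KO IP, 0.549% in KO SC and 1.08% in WT SC, against 1.76 to 2.69% in the other barcodes, and both were lower under both scalings. The list of early progenitor and cycling genes had 28 UMIs, and its 3 genes tested were lower, though none under TMM. Of 15 immediate early genes, which many cells switch on within minutes of stress, 14 were lower (6 under TMM) and Jund higher. In barcodes with fewer than 200 genes the Malat1 and Neat1 share was 0.0519 to 0.108%.

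RNA of other cells was present in some globin-rich barcodes. The 10 marker lists of other cells (platelet, neutrophil, B cell, T cell, NK cell, macrophage, adipose stromal cell or ASC, EC, mesothelial cell and adipocyte, 80 genes) made 0.809, 0.153, 0.185 and 0.308% of non-globin UMIs, against 1.37 to 3.75% in other barcodes. Of the 80 genes, 32 were at 0 in every globin-rich barcode. The platelet list had 1 UMI, of Itga2b, the EC list 6, the mesothelial list 3 and the adipocyte list 0. Neutrophil RNA came to 8 UMIs, 3 of them S100a8, NK cell RNA to 33 UMIs, 17 of them Gzma (16 in 1 WT SC barcode), and macrophage RNA to 52 UMIs, 36 of them Apoe. The ASC list was the largest, with 374, 5, 101 and 68 UMIs, 150 of them Col3a1, a collagen chain. B cell genes gave 97, 8, 1 and 5 UMIs, 35 of them Ebf1, and T cell genes 63, 18, 0 and 1, 18 of them Trbc2.

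In WT SC most of this RNA lay in a few barcodes. Its 9 globin-rich barcodes with under 90% globin held 699 to 2633 genes. The deepest, with 8125 non-globin UMIs, had 73 UMIs of B cell genes, and the next, with 4128, had 46 of T cell genes. The other 7 were alike, with 2578 to 3483 UMIs in total, 50.9 to 59.9% globin and 35 to 69 UMIs of ASC genes each. A pair of barcodes just under the threshold, at 49.9 and 46.0% globin, held 49 and 67 ASC UMIs and similar totals. In KO SC 1 barcode of 877 genes and 70.3% globin had 12 UMIs of T cell genes. Erythroid lists made 1.01 to 5.91% of the non-globin UMIs of these barcodes. No globin-rich barcode in IP was of this kind, but ASC RNA was found in 79 WT IP and 45 KO IP barcodes at a UMI or so each, where ASC genes also made 3.13 and 2.89% of the other barcodes' non-globin UMIs. Without barcodes of 200 or more genes the ASC share was 0.0311, 0.0273, 0.188 and 0.223%. Whether this RNA came from free RNA or from 2 cells under 1 barcode was not tested.

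Composition moved with depth. Among barcodes with at least 90% globin, the erythroid lists rose from 14.3 to 19.3% of non-globin UMIs in barcodes under 4000 total UMIs to 41.5 to 46.7% in those over 12000, in the same order of bins in each library. The median of non-globin UMIs rose from 40.5 to 68 in the lowest bin to 337 to 475.5 in the highest. Hbb-bt rose from 2.16 to 4.26% of beta-chain UMIs to 16.5 to 18.0%, a rise seen in all 4 libraries. Within bins KO IP was below WT IP in all 4, while KO SC was below WT SC in 3 and above it between 8000 and 12000 UMIs, at 11.7% (11.5 to 11.9) against 11.4% (11.3 to 11.5). The alpha chains fell from 41.3 to 48.4% of globin UMIs in the lowest bin to 35.7 to 40.1% in the highest. Ribosomal protein RNA went the other way. With all globin-rich barcodes of a library ranked by total UMIs and cut into 4 groups of equal size, it was 13.3, 19.9, 12.1 and 12.2% of non-globin UMIs in the shallowest group and 7.75, 4.44, 4.36 and 5.33% in the deepest. The bins are steps of total UMIs, which globin dominates, and were chosen after seeing the data.

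Some transcripts lay mostly in the deepest barcodes, and others did not. Of all non-globin UMIs, the deepest of the 4 equal groups held 36791 of 73875, 12715 of 22242, 35606 of 63730 and 16201 of 30531. In the deepest of the 4 equal groups Car2 had 104 of its 117 UMIs, 77 of 79, 245 of 273 and 32 of 35. Trim10, a TRIM protein of terminal erythroid differentiation, had 41 of 46, 17 of 18, 42 of 50 and 6 of 6. Alas2 lay near the share of all non-globin UMIs, with 1431 of 2909, 562 of 1001, 1611 of 3180 and 971 of 1673. Gm42418 lay below that share, with 1735 of 4844, 715 of 2012, 2148 of 6766 and 1502 of 4465. In barcodes of at least 90% globin and under 4000 UMIs it was at 258579, 222321, 284246 and 295652 CPM. In those over 12000 UMIs it was at 61435, 48551, 66162 and 95162 CPM.

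Against this background KO was compared with WT in each depot, for genes that reached 20 UMIs when both libraries were added. In SC, 387 genes were compared, and 15 (3.88%) were over 2-fold higher and 101 (26.1%) over 2-fold lower in KO. In IP, 284 genes were compared, with 6 (2.11%) higher and 51 (18.0%) lower. Of 265 genes compared in both depots, 149 (56.2%) differed the same way. Without barcodes of 200 or more genes, which include the mixed WT SC barcodes described above, 7 were higher and 16 lower in SC, and 26 were lower in IP.

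The SC falls included stromal genes. Col3a1 had 109 UMIs in WT SC and 0 in KO SC, all 6 ASC genes compared were over 2-fold lower, and so were 24 of 75 ribosomal protein genes, a share near the 26.1% of all genes. In barcodes under 200 genes the summed ASC level was at -0.10 (-2.01 to 1.37) on the log2 scale, against -4.36 with all barcodes. The ribosomal list turned from -0.19 (-0.26 to -0.11) to 0.40 (0.31 to 0.49). Haem synthesis moved less. Its summed level was 0.17 higher on the log2 scale in KO SC (counting interval 0.07 to 0.27) and 0.12 higher in KO IP (0.04 to 0.20), while the median over its 4 genes in IP was -0.05. In barcodes under 200 genes the same values were -0.19 and 0.03. Alas2 alone was 0.19 and 0.14 higher, but at -0.44 (-0.60 to -0.29) in SC and 0.34 (0.23 to 0.45) in IP in barcodes over 12000 UMIs.

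By the rule for naming, 5 genes were higher and 5 lower in KO in both depots. Rpl41, a very short ribosomal protein, was 7269 and 13983 CPM in WT SC and KO SC and 12412 and 19816 CPM in WT IP and KO IP, log2 ratios of 0.94 and 0.68. In barcodes over 12000 UMIs the sign of Rpl41 turned in SC, at -0.54 (-1.01 to -0.12), and stayed in IP, at 0.66 (0.42 to 0.91). Rplp1, Ctsb (the protease cathepsin B), Becn1 (beclin 1, of autophagy) and the predicted gene Gm11808 had log2 ratios of 0.60 to 1.22. The counting interval included 0 for Becn1 in both depots and for Ctsb in SC. Tspo2 was the red cell gene among the 5 that were lower. Its UMIs were 41 in WT SC against 2 in KO SC and 51 in WT IP against 3 in KO IP, log2 ratios of -2.32 and -2.82 with intervals below 0. It was found in 12.3 and 12.4% of WT and 1.47 and 1.79% of KO globin-rich barcodes, and in at most 0.148% of other barcodes. In barcodes over 12000 UMIs, with 2 UMIs in each KO library, the log2 ratios were -1.82 (-5.23 to -0.12) and -2.86 (-6.25 to -1.22). Tmsb4x (thymosin beta 4), Calm3 (calmodulin) and Pink1 (a kinase of mitochondrial clearance) had log2 ratios of -2.55 and -1.34, -1.16 and -3.13, and -1.08 and -1.13 in SC and IP. The interval included 0 for Pink1 in both depots, Calm3 in SC and Tmsb4x in IP. In WT SC 1 barcode held 32 of the 126 Tmsb4x UMIs. GFPcds is given at the end. These are differences between 2 libraries in each depot, in which the effects of mouse, tissue handling and genotype cannot be told apart.

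Of other red cell genes over all depths together, Prdx2 had an interval below 0 in IP alone, Car2 had opposite signs in the depots, and Cat was lower in both. Prdx2 was found at 11015 CPM in WT IP and 4094 in KO IP, with log2 ratios over barcodes of at least 90% globin of -1.42 (-1.71 to -1.15) in IP and -0.20 (-0.46 to 0.05) in SC. Within barcodes over 12000 UMIs they were -1.30 (-1.63 to -0.99) and 0.18 (-0.12 to 0.47). At low depth Prdx2 was lower in KO SC too, on 4 and 6 KO UMIs. It was at -1.52 (-3.69 to -0.01) under 4000 UMIs and -2.34 (-3.97 to -1.19) between 4000 and 8000. A fall of Prdx2 in IP alone therefore did not hold at every depth. Car2 was -1.88 (-2.45 to -1.39) in IP and 0.89 (0.45 to 1.32) in SC, and in the deep barcodes -1.66 and 1.25. The IP intervals lay below 0 for both genes over barcodes of at least 90% globin and in those over 12000 UMIs. Cat was at -1.39 (-2.75 to -0.39) in SC and -1.07 (-2.06 to -0.26) in IP over barcodes of at least 90% globin, with intervals that included 0 in the deep barcodes. The gas exchange and redox list as a whole was 0.54 lower in KO IP (-0.63 to -0.46) and 0.38 higher in KO SC (0.29 to 0.47), and in barcodes under 200 genes it was at -0.27 (-0.37 to -0.18) in IP and -0.00 (-0.10 to 0.10) in SC.

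**Figure D4:**
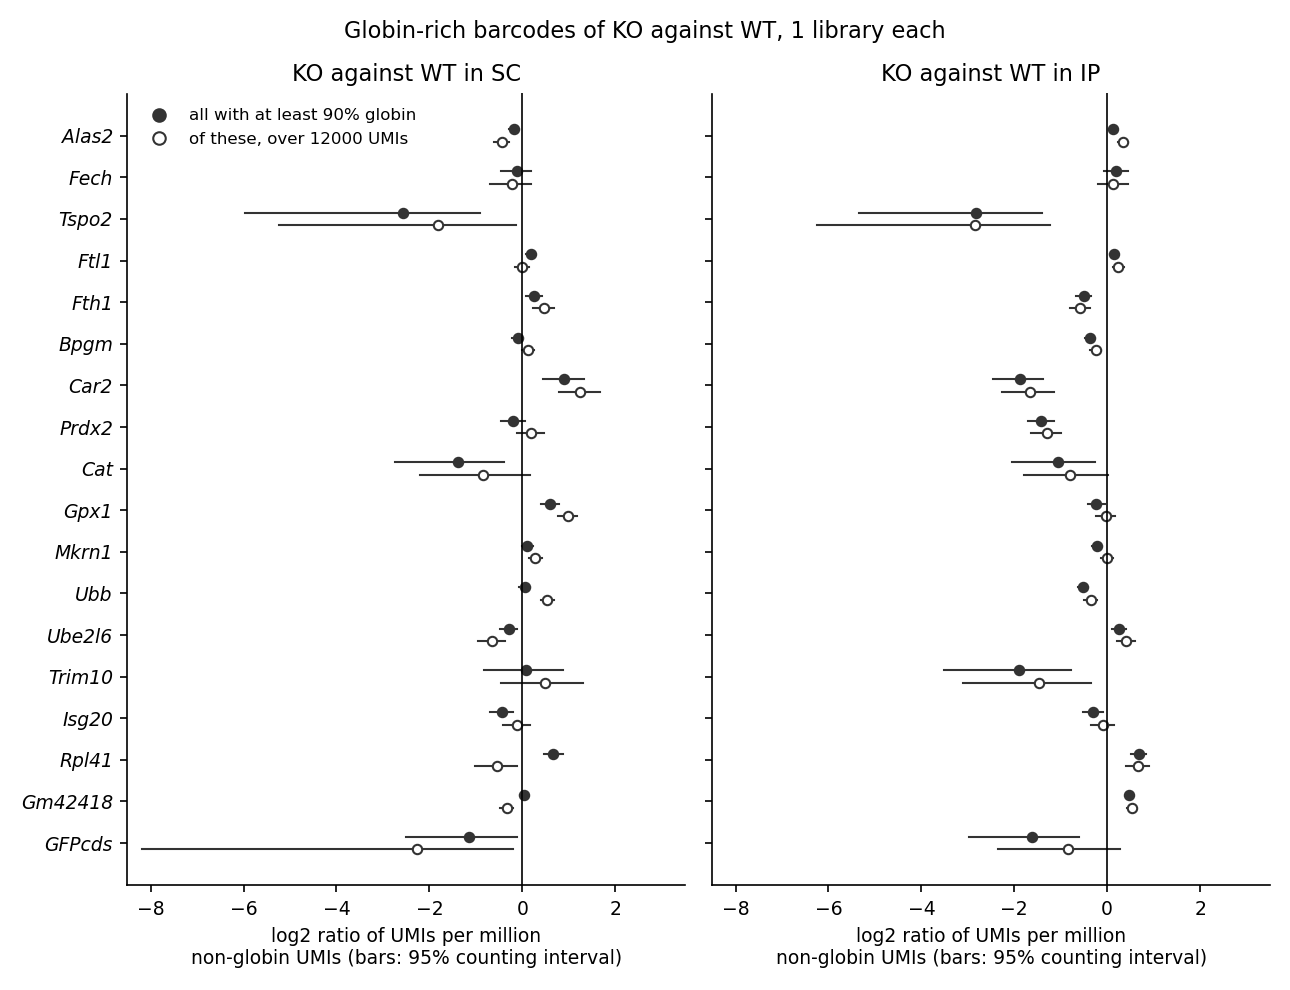
Log2 ratio of KO to WT (horizontal axis) for 18 genes in SC (left) and IP (right), 1 library of each, with bars for the 95% counting interval, for all barcodes with at least 90% globin (filled) and those over 12000 UMIs (open). Tspo2 lies below 0 in both depots, while Car2 lies above 0 in SC and below 0 in IP.

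IP was set against SC within each genotype in the same way. In WT, 445 genes were compared, with 19 (4.27%) higher and 145 (32.6%) lower in IP, and in KO 212 genes, with 4 (1.89%) higher and 19 (8.96%) lower. In barcodes under 200 genes the WT counts were 10 and 10, far below 145 for the falls. The 4 comparisons share libraries, so their counts are not independent. Gm42418 was higher in IP than SC in both genotypes, as its CPM values above show. The minor globins were 0.82 higher in WT IP (0.33 to 1.32) and 0.41 higher in KO IP (-0.31 to 1.19), the latter an interval that includes 0. In barcodes under 200 genes the WT value was 0.34 (-0.18 to 0.87).

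The Cre reporter could be read in part. The Tomato transcript had 0 UMIs in globin-rich barcodes, with the same limits as Tert, which lie above its 6.98 to 11.0 CPM elsewhere. The GFP coding sequence (GFPcds) had 71, 8, 54 and 8 UMIs, or 961, 360, 847 and 262 CPM. The other barcodes had 1196, 677, 867 and 275 CPM, and the test found a log2 difference of -0.32 ± 0.47 (adjusted p = 0.52, edgeR). GFPcds was detected in 16.4, 5.15, 14.8 and 4.17% of globin-rich barcodes and in 25.2 to 54.7% of the deeper others. Thinned to 50 non-globin UMIs these became 4.77, 2.62, 4.19 and 0.958% against 5.82, 3.24, 4.72 and 1.94%, below the rest in every library. Under TMM the log2 difference was 1.08, also not called. Whether the globin-rich cells themselves expressed GFPcds was not tested. The log2 ratio of KO to WT was -1.34 (-2.68 to -0.36) in SC and -1.62 (-2.98 to -0.61) in IP. In WT SC 1 barcode held 21 of the 71 UMIs, and with at least 90% globin the SC ratio was -1.14 (-2.51 to -0.12). Over 12000 UMIs it was -2.27 (-8.19 to -0.21) in SC, on 1 KO UMI. In IP it was -0.85 (-2.35 to 0.28) there, an interval that includes 0.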

How the data were processed

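Single cell suspensions of AT were sequenced with 10x Chromium 3' v3 chemistry, 1 library for each of WT SC, KO SC, WT IP and KO IP. Per the file headers, the deposited UMI counts per gene and barcode came from Cell Ranger 7.0.0, and the submitters' processing notes list STAR 2.6 and mm10. The rule for calling cells and the use of intronic reads are not given in the sources used here. The 4 matrices hold 10015201 to 15533961 UMIs.

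Barcodes with at least 50% of UMIs from Hbb-bs, Hbb-bt, Hba-a1 and Hba-a2 were taken, with no minimum of genes and no doublet caller. The members and gene lists were chosen with earlier results of these data known. Counts were summed per library over these and over all other barcodes, globins left out, and compared with edgeR 4.0.16 (quasi-likelihood, library as block, total non-globin UMIs as library size, genes with at least 10 expected UMIs, Benjamini-Hochberg adjusted p under 0.05). Barcodes of 1 library are not independent samples, so the 4 libraries are the replicates of this comparison. Between libraries only ratios with 95% counting intervals were computed (pseudocount 0.5, at least 20 UMIs, past 2-fold), since each group is 1 library. Exact intervals and the 3-count limit for 0 cover counting error only. Detection was compared after thinning to 50 non-globin UMIs.

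Genes were named from the lists, as the 10 most abundant, as the 10 largest changes in each direction against other barcodes, and as the 5 largest in each direction that differed the same way between KO and WT in both depots. Bins of depth and barcodes singled out were chosen after their values were seen. Python 3.11.15, scipy 1.17.1, R 4.3.3 and DESeq2 1.42.0 were also used. Some genes that this rule names are not reported here.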

Additional observations from a re-analysis of the deposited data

Results flagged for a closer look

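For 8 of the genes reported here the ratio of KO to WT in globin-rich barcodes had opposite signs in SC and IP, with a counting interval apart from 0 in each depot. The difference between depots was not tested, since each value compares 1 library with 1 library. Of these, 6 were higher in KO in SC and lower in IP. The log2 ratios in SC and IP were 1.17 and -1.88 for Car2, 0.84 and -0.23 for Gpx1, 0.47 and -0.51 for Fth1, 0.32 and -0.52 for Ubb, 0.46 and -0.21 for Mkrn1 and 0.26 and -0.37 for Bpgm. In barcodes of at least 90% globin the SC interval included 0 for Ubb at 0.05 (-0.07 to 0.18), Mkrn1 at 0.11 (-0.01 to 0.22) and Bpgm at -0.10 (-0.21 to 0.02), so the opposite signs held with both intervals apart from 0 for Car2, Gpx1 and Fth1 only. In barcodes over 12000 UMIs they held for Car2 (1.25 and -1.66), Fth1 (0.46 and -0.58) and Ubb (0.54 and -0.36). In the lowest bin of total UMIs Ubb was lower in KO in both depots. Its values there were -0.86 (-1.42 to -0.35) in SC and -0.88 (-1.38 to -0.42) in IP. In the next bin they were -2.01 (-2.59 to -1.51) and -1.31 (-1.75 to -0.91). The opposite signs of Ubb therefore did not hold at every depth. For Fth1 the SC interval included 0 in both of these bins. Over 12000 UMIs an interval included 0 for Gpx1 in IP, at -0.03 (-0.23 to 0.17), and for Mkrn1 in IP, at -0.00 (-0.13 to 0.12). The same was true there of Bpgm in SC, at 0.13 (-0.01 to 0.25). The stromal genes went the other way, with -4.00 and 1.21 for Dcn and -5.47 and 1.29 for Sparc, and the ASC list in SC was at -0.10 without barcodes of 200 or more genes.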

How the results depend on the processing

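The count of higher genes (219) stayed between 192 and 297 under every other setting run, and 210 of the 219 were also higher in barcodes under 200 genes. The count of lower genes (1629) was 252 with TMM and 696 with at least 20 expected UMIs, and 766 to 1092 with 1 library left out. TMM reversed the sign of Foxo3 (0.99), Rplp1 (0.58) and GFPcds (1.08), none of them called under TMM. Rplp1 had been called lower (-0.81). Of 928 values of named genes against other barcodes, 893 kept direction and side of the threshold. The erythroid share of non-globin UMIs became 40.4% (WT SC) and 39.2% (KO SC) with at least 80% globin, 40.7, 38.3 and 38.3% (WT SC, KO SC, WT IP) under 200 genes, and 33.5, 28.6, 32.4 and 27.4% with barcodes weighted equally.

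Counts of genes past 2-fold moved with the minimum of UMIs, and the falls in SC and in WT IP moved further without barcodes rich in genes or under 80% globin. With at least 50 UMIs the higher and lower counts were 7 and 35 for KO against WT in SC, 3 and 26 in IP, 5 and 65 for IP against SC in WT and 2 and 4 in KO. With at least 10 UMIs they were 37 and 223, 25 and 86, 45 and 318, and 15 and 46. With TMM the higher counts were 8, 3, 30 and 11, and the last comparison had 9 lower. Under 200 genes, 7 were higher and 16 lower for KO in SC, 26 lower in IP, 10 higher and 10 lower for IP in WT, and 1 and 8 in KO. With at least 80% globin, 16 were lower for KO in SC and 10 for IP in WT. Leaving out barcodes shared between libraries, chosen after seeing the data, gave 219 higher and 1626 lower. No paired analysis was possible because each group has 1 library, and the labels do not say whether libraries share mice. The comparison with other barcodes has the library as block, and without that block it called 234 higher and 1569 lower. Counting error is widest in KO SC, with 22242 non-globin UMIs.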
